A study of Mus musculus with 6 samples.

Results

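The genes described here carry out antigen presentation by major histocompatibility complex (MHC) class I molecules: H2-K1, H2-D1, B2m, Tap1, Tap2, Tapbp, Nlrc5, Psmb8 and Psmb9. They were chosen by symbol, and all 9 were found as 1 row each among the 32285 genes of the deposited matrices. The study compared the skin of mice lacking an enhancer upstream of Il2ra, the gene of an interleukin-2 receptor chain, with wild-type skin. The 3 groups were deletion (UP_Del) mice with alopecia, deletion mice without alopecia, and C57BL/6 wild-type mice. All were untreated females aged 17 to 18 weeks, and the labels name C57/BL6 as the genotype of all 6 samples. The skin was freed of the hypodermis, digested, and sorted into live CD45-positive and live CD45-negative cells, and each sort of each group was 1 single-cell RNA library made with the 10x Genomics 5' HT v2 kit, 6 libraries in all. How many mice went into a library is not given in the sources used here. With 1 library for each group and sort there was no replicate spread and no test, and the intervals below are 95% intervals of counting error only.

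Class I molecules show peptides from inside the cell to CD8 T cells and natural killer (NK) cells. The proteasome cuts proteins into peptides, the Tap1 and Tap2 transporter carries them into the endoplasmic reticulum, tapasin (Tapbp) helps load them, and a heavy chain such as H2-K1 or H2-D1 leaves for the cell surface bound to beta-2 microglobulin (B2m). Psmb8 and Psmb9 are inducible catalytic subunits that take the places of Psmb5 and Psmb6 and turn the proteasome into the immunoproteasome, and Nlrc5 is the transactivator that binds at class I promoters. In hair biology the system is known because the bulb of the growing follicle holds little class I protein, a state called immune privilege, and because CD8 T cells attack the bulb in alopecia areata.

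Of the 9 genes, 7 lie on mouse chromosome 17 (GRCm38 coordinates, GENCODE vM21): H2-K1 at chr17:33996017-34000347, minus strand, and H2-D1 at chr17:35262730-35267499, plus strand, the others between or beside them. B2m is at chr2:122147686-122153083 and Nlrc5 at chr8:94434356-94527272. Promoter sequence from RefSeq (GRCm38.p6), from 250 bases before to 50 bases after the start, was found for 7 of the 9 genes. The H2-K1 and H2-D1 stretches are shown because they hold, in capitals and in this order, the kappaB site (GGGGATTCCCC), the interferon-stimulated element (GAANNGAAA, read here on the other strand), the X2 box bound in the Nlrc5 complex (TGACGCG) and the CCAAT box on either strand. The Tap1 stretch is shown because it runs between the RefSeq starts of Tap1 and Psmb9, which are transcribed away from each other, and its capitals mark the CCAAT box.
H2-K1, chr17:34000357-34000462, minus strand: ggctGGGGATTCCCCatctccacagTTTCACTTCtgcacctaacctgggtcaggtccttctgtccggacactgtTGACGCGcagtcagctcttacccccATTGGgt
H2-D1, chr17:35262919-35263047, plus strand: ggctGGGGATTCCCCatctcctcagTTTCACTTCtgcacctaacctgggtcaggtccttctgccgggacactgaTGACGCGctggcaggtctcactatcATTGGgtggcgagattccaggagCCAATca
Tap1 and Psmb9, chr17:34187331-34187555, plus strand: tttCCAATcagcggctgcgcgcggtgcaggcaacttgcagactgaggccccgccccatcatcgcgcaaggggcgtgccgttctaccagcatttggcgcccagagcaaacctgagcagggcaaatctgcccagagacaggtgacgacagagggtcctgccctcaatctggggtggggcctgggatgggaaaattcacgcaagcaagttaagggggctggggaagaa
The H2-K1 stretch (106 bases) and the H2-D1 stretch (129 bases) were identical in 95 of 129 aligned columns (73.6%). Each stretch was cut after its own last CCAAT box, and H2-D1 bases past the end of the H2-K1 stretch count as not identical. Over the 250 bases before the start and on both strands, the kappaB letters occurred in 0.0304% of 32851 promoters, the X2 letters in 1.56%, the interferon-stimulated element in 6.31% and CCAAT in 33.8%. Psmb8 held TTCNNNGAA, the letters of the gamma-activated site found in 7.02% of promoters, at 97 bases before its start. A match describes letters in a window and not a bound site.

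After filtering, the CD45-positive libraries held 8846 cells with alopecia, 3236 without alopecia and 6307 from wild type, and the CD45-negative libraries 4797 with alopecia, 14391 without and 3285 in wild type. Total UMIs (unique molecular identifiers, which count captured RNA molecules) were 20116378 to 116334373 per library, and the median kept cell had 4089 to 5641. The filter on UMIs, genes and mitochondrial share removed 30.4% of the CD45-negative barcodes with alopecia, 7.56% without and 26.7% in wild type. Pairs of libraries shared 24 to 228 cell barcodes, or 0.719% to 2.575% of the smaller library. Cells were clustered without the 9 genes, and 30 clusters or groups of clusters were named for the cell types they resembled by their markers, so each class name below means cells like that type. Unnamed clusters held 20.9% of the cells. Il2ra, next to the deleted enhancer, stood at 134 CPM with alopecia, 149.5 CPM without and 239.8 CPM in wild type over all CD45-positive cells. CPM here is the gene's UMIs for each 1000000 UMIs summed over the cells named, within 1 library, and is not scaled to gene length.

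Class I genes were lowest at the core of the hair follicle, and the class with the highest level differed between the genes. All 9 had their lowest mean level, of 30 named classes, in hair shaft or matrix cells, which build the hair from keratins such as Krt35. H2-K1 and H2-D1 were highest in NK cells. B2m, Psmb8 and Psmb9 were highest in migratory dendritic cells, Tap1 in cycling keratinocytes, Tap2 and Tapbp in blood endothelium and Nlrc5 in basal keratinocytes of the interfollicular epidermis. The order was mostly gradual: of 29 pairs of neighbouring classes, 24 to 28 had overlapping ranges over the 3 groups, depending on the gene.

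**Figure D1:**
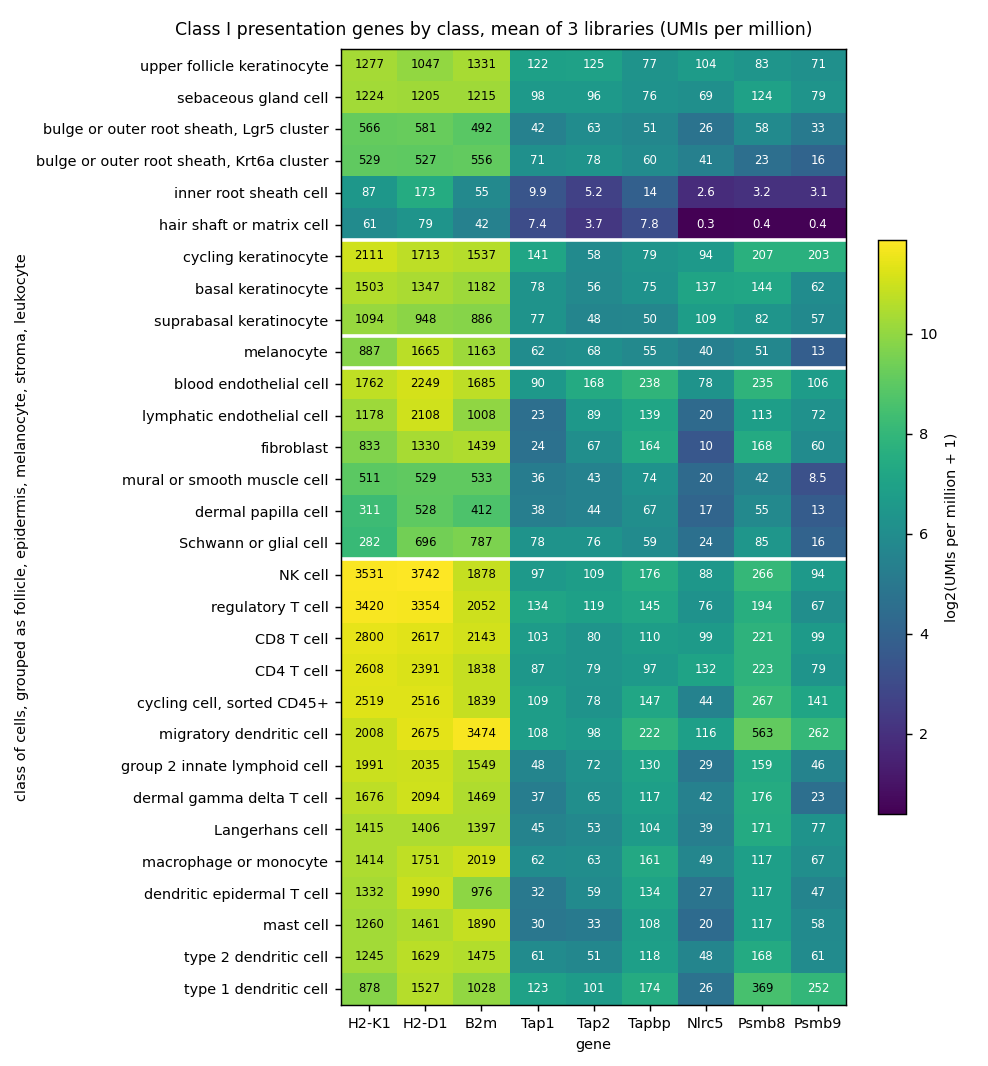
Levels of the 9 class I genes (columns) in the 30 named cell classes (rows), as the mean over the 3 groups, with the CPM printed and the colour on a log2(CPM + 1) scale. Hair shaft or matrix and inner root sheath cells are the lowest rows in each column, with H2-K1 at a mean of 60.6 and 86.6 CPM against 3531 CPM in NK cells.

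In the hair follicle the level was lower in steps from the upper follicle to the hair-forming cells. H2-K1, a classical heavy chain, stood in upper follicle keratinocytes (marked by Krt79) at 1249.6 CPM with alopecia, 1403 CPM without alopecia and 1178 CPM in wild type. In the Lgr5 cluster of the bulge or outer root sheath, which holds stem cells, it was at 473 CPM with alopecia, 649 CPM without and 576 CPM in wild type. In inner root sheath cells, which mould the growing shaft, it was at 89.6 CPM with alopecia, 106 CPM without and 64.1 CPM in wild type. After its own markers (score 3.62), this cluster scored next for markers of cycling cells (2.10), and Pclaf and Hist1h2ae were among its leading genes. How many of its cells were dividing was not measured. The ranges of the 3 compartments over the groups did not overlap. Hair shaft or matrix cells had 51.9 CPM with alopecia, 82.8 CPM without and 46.9 CPM in wild type, a range that overlapped that of the inner root sheath. Krt35 in hair shaft or matrix cells was at 6000.1 CPM with alopecia, 7868 CPM without and 4006 CPM in wild type. These cells numbered 162 with alopecia, 29 without and 67 in wild type.

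As a ratio, H2-K1 in inner root sheath cells was 13.9-fold below upper follicle keratinocytes with alopecia (log2 ratio -3.80, interval -3.94 to -3.66), 13.2-fold below without alopecia (-3.72, -3.86 to -3.59) and 18.4-fold below in wild type (-4.20, -4.38 to -4.03). In hair shaft or matrix cells it was 24.1-fold below with alopecia (-4.59, -4.88 to -4.31), 16.9-fold below without (-4.08, -4.73 to -3.51) and 25.1-fold below in wild type (-4.65, -5.14 to -4.20). The step to the Lgr5 cluster was smaller, at log2 ratios of -1.40 with alopecia, -1.11 without and -1.03 in wild type. Each of these ratios had the same sign in all 3 groups. Without alopecia they depended on how cells were classed: with no doublet removal the inner root sheath ratio was -3.06 and the hair shaft ratio -3.20, and with each cell classed by its own markers they were -3.05 and -2.12. Own markers gave hair shaft ratios of -3.90 with alopecia and -3.80 in wild type.

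The light chain and the transactivator followed the heavy chain. B2m in inner root sheath cells was at 51.7 CPM with alopecia, 74.6 CPM without and 40.1 CPM in wild type, and in upper follicle keratinocytes at 1311 CPM with alopecia, 1385 CPM without and 1297 CPM in wild type. In hair shaft or matrix cells B2m was 52.5-fold below the upper follicle with alopecia, 19.1-fold without and 44.9-fold in wild type. Nlrc5 in inner root sheath cells was at 2.53 CPM with alopecia, 3.25 CPM without and 2.04 CPM in wild type. In the upper follicle it was at 109 CPM with alopecia, 99.5 CPM without and 104 CPM in wild type, so that the log2 ratios of inner root sheath to upper follicle were -5.44 with alopecia, -4.94 without and -5.68 in wild type. The drop was smallest for Tapbp and H2-D1. Tapbp in inner root sheath cells lay 2.51 log2 units below the upper follicle with alopecia, 2.45 below without and 2.44 below in wild type, and H2-D1 lay 2.66 below with alopecia, 2.56 below without and 2.57 below in wild type.

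The low follicle values were set beside the depth of these cells, other cells' RNA and the constitutive proteasome. Inner root sheath cells had a median of 18530 UMIs with alopecia, 17369 without and 16746.5 in wild type. Upper follicle cells were shallower, with medians of 5898 with alopecia, 5150 without and 5913 in wild type. After each cell was thinned to 1000 UMIs, H2-K1 was seen in 7.55% of inner root sheath cells with alopecia (20 of 265), 8.91% without (22 of 247) and 7.38% in wild type (18 of 244). Upper follicle cells had an H2-K1 UMI in 68.3% with alopecia, 72.3% without and 67.6% in wild type. Unthinned, inner root sheath cells with an H2-K1 UMI were 57.8% with alopecia, 58.4% without and 47.2% in wild type, and upper follicle cells 94.8% with alopecia, 94.8% without and 94.6% in wild type. No class of nucleated cells is known to lack H2-K1, so no class gives its background. Krt79 served as a measure of free RNA from upper follicle cells only. In inner root sheath cells it was at 11.3 CPM with alopecia, 10.9 CPM without and 4.53 CPM in wild type. In the upper follicle it was at 7166 CPM with alopecia, 7608 CPM without and 6745 CPM in wild type. Krt15 in inner root sheath cells was higher, at 103 CPM with alopecia, 334 CPM without and 74.9 CPM in wild type. In basal keratinocytes Krt15 was at 9090 CPM with alopecia, 7849 CPM without and 7945 CPM in wild type. How much of the H2-K1 in inner root sheath cells came from other cells' RNA was not tested. The constitutive catalytic subunits Psmb5, Psmb6 and Psmb7 summed to 706 CPM with alopecia, 793 CPM without and 676 CPM in wild type in inner root sheath cells. Their sum was 337 CPM with alopecia, 414 CPM without and 358 CPM in wild type in the upper follicle, so the inner root sheath was not low in the constitutive subunits.

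**Figure D2:**
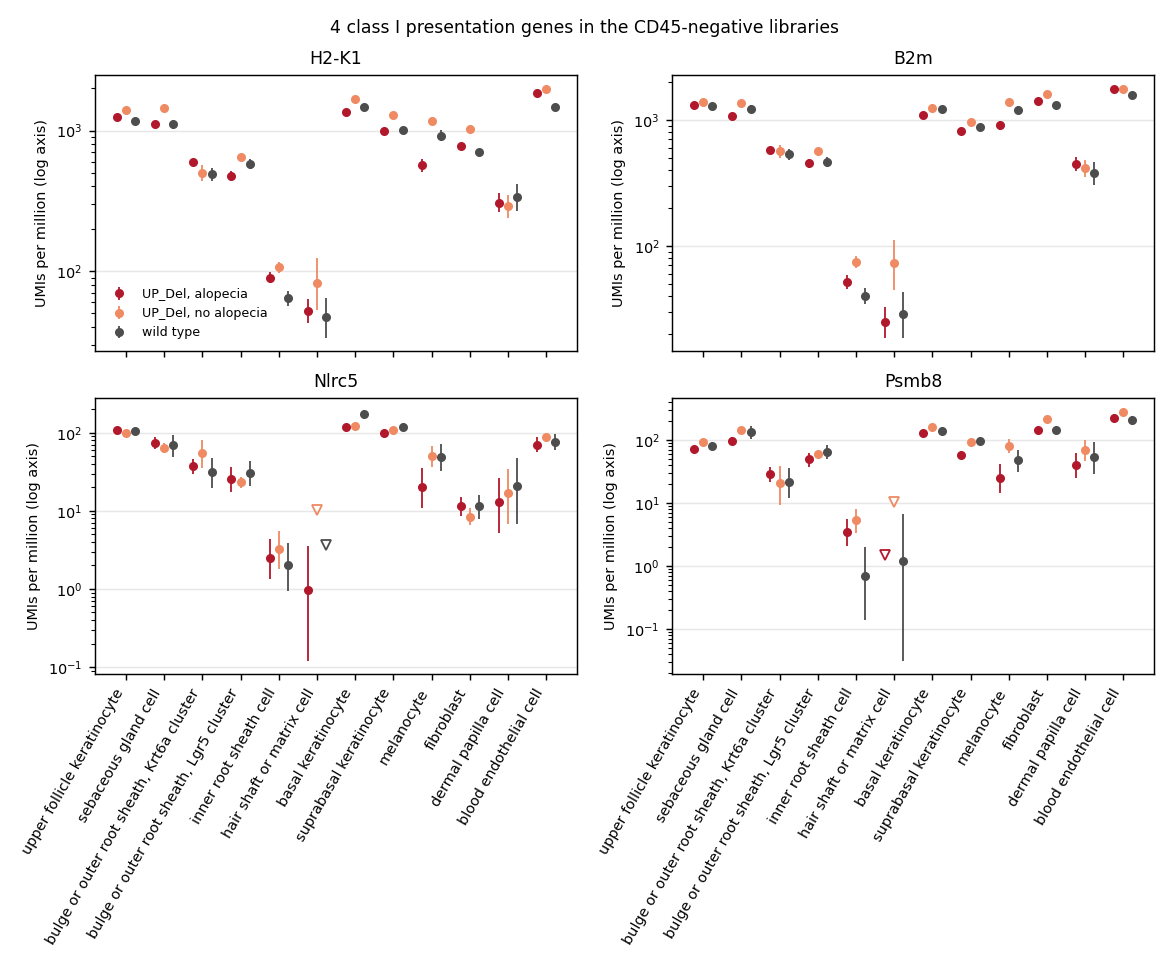
Levels of H2-K1, B2m, Nlrc5 and Psmb8 (panels, CPM on a log axis) in 12 classes of the CD45-negative sort, with 1 point per library, bars for the 95% Poisson interval and open triangles at the level of 3 counts where the count was 0. Inner root sheath and hair shaft or matrix points lie below those of the upper follicle in all 3 groups.

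The inducible proteasome subunits Psmb8 and Psmb9 were at low levels in inner root sheath cells, and Psmb8 was at 0 or 1 UMI in hair shaft or matrix cells. Psmb8 was at 18 UMIs (3.50 CPM) with alopecia, 23 UMIs (5.33 CPM) without and 3 UMIs (0.679 CPM) in wild type in inner root sheath cells, against 72.2 CPM with alopecia, 93.8 CPM without and 81.6 CPM in wild type in the upper follicle. Hair shaft or matrix cells had 0 Psmb8 UMIs with alopecia, 0 without and 1 in wild type. With the floor of 3 counts for the class in a library, this was at least 49.1-fold lower than the upper follicle with alopecia and at least 9.06-fold lower without. The wild-type ratio from 1 UMI was -6.08 on the log2 scale (-11.39 to -3.59).

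The share of Psmb8 among the UMIs of Psmb8 and Psmb5 does not depend on the scaling of a class. In inner root sheath cells it was 1.09% with alopecia (0.647% to 1.72%), 1.49% without (0.945% to 2.22%) and 0.223% in wild type (0.0460% to 0.650%). Upper follicle keratinocytes had 33.0% with alopecia, 34.1% without and 36.6% in wild type. Basal keratinocytes had 46.0% with alopecia, 50.7% without and 51.2% in wild type, and the top of the range was in migratory dendritic cells with 86.8% with alopecia, 80.0% without and 81.2% in wild type. Migratory dendritic cells thus held mostly Psmb8, and inner root sheath cells almost only Psmb5. Psmb9 against Psmb6 gave 1.35% with alopecia, 1.35% without and 0.745% in wild type in inner root sheath cells, and 34.4% with alopecia, 32.7% without and 33.7% in wild type in the upper follicle. The third inducible subunit, Psmb10, did not follow them: its share of Psmb10 and Psmb7 in inner root sheath cells was 16.5% with alopecia, 15.5% without and 14.7% in wild type, and in the upper follicle 23.2% with alopecia, 27.4% without and 26.5% in wild type.

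**Figure D3:**
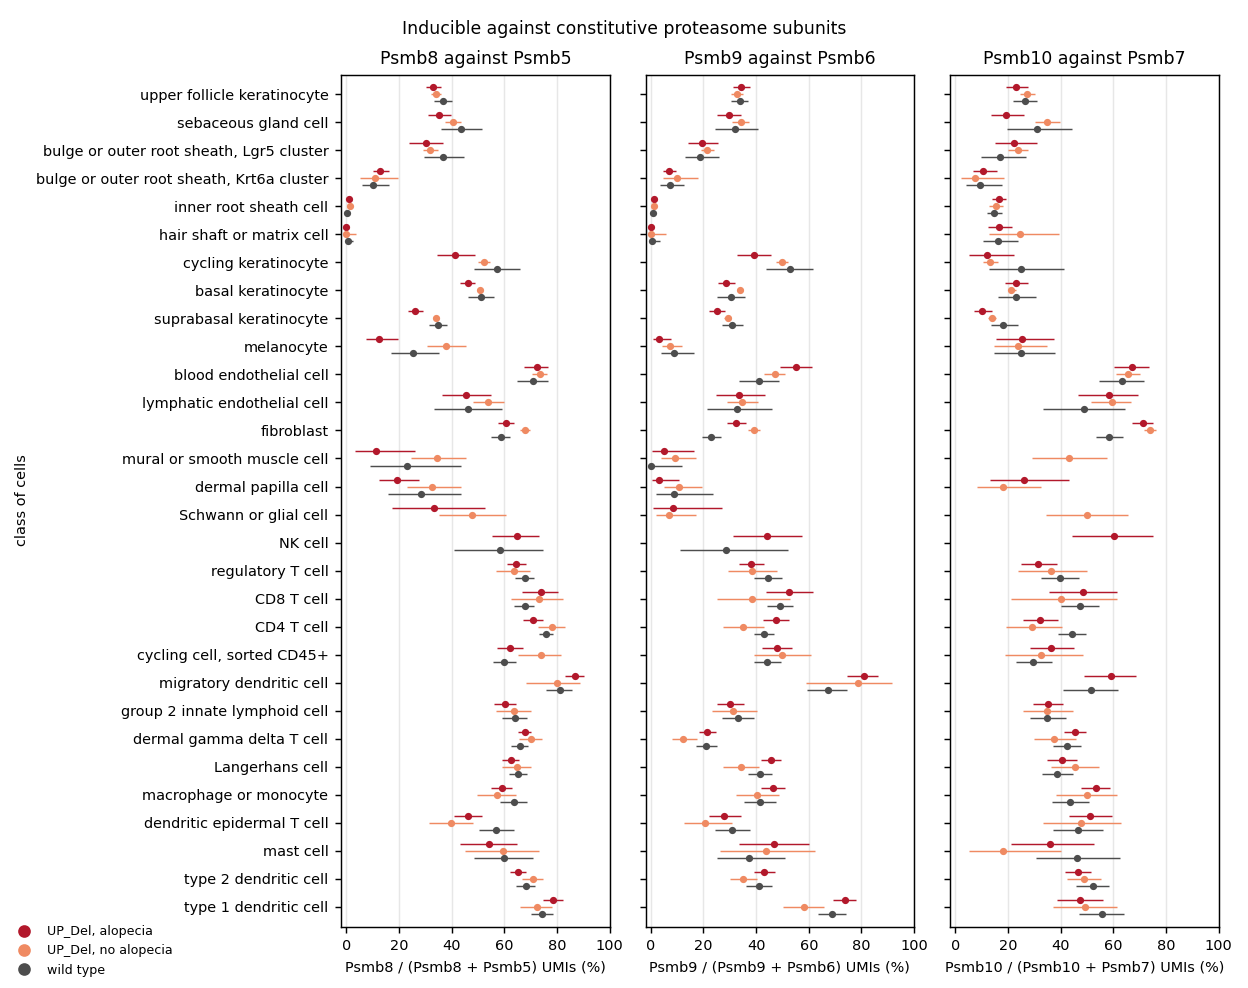
Share of each inducible subunit in the UMIs of its inducible and constitutive pair (percent), by class and library, with exact 95% binomial intervals. In inner root sheath cells the Psmb8 shares are 0.223% to 1.49% and the Psmb9 shares 0.745% to 1.35%, whereas the Psmb10 shares are 14.7% to 16.5%.

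Other genes of the pathway divided along the same line. The other class I heavy chains, a list of 19 H2-Q, H2-T and H2-M genes and relatives, summed in inner root sheath cells to 34.8 CPM with alopecia, 45.9 CPM without and 32.1 CPM in wild type, and in the upper follicle to 961 CPM with alopecia, 1023 CPM without and 889 CPM in wild type. H2-Q7 alone was at 1.94 CPM with alopecia, 5.33 CPM without and 1.13 CPM in wild type in inner root sheath cells, and at 293 CPM with alopecia, 297 CPM without and 276 CPM in wild type in the upper follicle. Genes shared with other tasks were closer in level. Psme2, a subunit of the proteasome activator PA28, stood in inner root sheath cells at 71.9 CPM with alopecia, 76.7 CPM without and 74.9 CPM in wild type, and in the upper follicle at 115 CPM with alopecia, 130.1 CPM without and 110.4 CPM in wild type. Calr, the chaperone calreticulin, was higher in inner root sheath cells, at 235 CPM with alopecia, 219.8 CPM without and 209 CPM in wild type, than in the upper follicle, at 166 CPM with alopecia, 156 CPM without and 181 CPM in wild type. The interferon receptor and signalling list summed to 206 CPM with alopecia, 259 CPM without and 187 CPM in wild type in inner root sheath cells, against 346 CPM with alopecia, 350.4 CPM without and 356 CPM in wild type in the upper follicle.

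In the mesenchyme of the follicle the contrast was smaller. H2-K1 in dermal papilla cells, the signalling centre under the hair bulb, was at 307 CPM with alopecia, 289 CPM without and 338 CPM in wild type, and in dermal fibroblasts at 774 CPM with alopecia, 1024 CPM without and 700.4 CPM in wild type. The log2 ratios of papilla to fibroblast were -1.33 with alopecia (-1.57 to -1.11), -1.83 without (-2.10 to -1.57) and -1.05 in wild type (-1.39 to -0.73). B2m lay lower by 1.64 log2 units with alopecia, 1.97 without and 1.80 in wild type. Nlrc5 did not share this pattern, at 12.8 CPM with alopecia, 16.9 CPM without and 20.6 CPM in wild type in papilla cells and 11.5 CPM with alopecia, 8.45 CPM without and 11.5 CPM in wild type in fibroblasts, and its intervals included 0. Nor did Tap1 by its mean over the groups, at 38.3 CPM in papilla cells (25.6 to 48.2) and 24.5 CPM in fibroblasts (18.9 to 28.2). The papilla rested on 55 cells with alopecia, 46 without and 24 in wild type.

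In the epidermis all 9 genes were expressed, and suprabasal cells, which have left the basal layer to differentiate, had less of the heavy chain. H2-K1 was at 993 CPM with alopecia, 1287 CPM without and 1003 CPM in wild type in suprabasal keratinocytes, and at 1363 CPM with alopecia, 1682 CPM without and 1463 CPM in wild type in basal keratinocytes. The log2 ratio of suprabasal to basal was -0.46 with alopecia, -0.39 without and -0.54 in wild type. For Psmb8 it was -1.18 with alopecia, -0.81 without and -0.52 in wild type. Nlrc5 in basal cells was at 119 CPM with alopecia, 121 CPM without and 172 CPM in wild type, and these were among its highest values anywhere.

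In the stroma, the log2 ratio of blood endothelium to fibroblasts was larger for Nlrc5 than for the other 8 genes in each group. Nlrc5 was at 70.6 CPM with alopecia, 87.7 CPM without and 76.8 CPM in wild type in blood endothelium, and its log2 ratio to fibroblasts was 2.62 with alopecia, 3.38 without and 2.74 in wild type. H2-K1 in endothelium was at 1839 CPM with alopecia, 1981 CPM without and 1466 CPM in wild type, with log2 ratios to fibroblasts of 1.25 with alopecia, 0.95 without and 1.07 in wild type. Tap1 came nearest to Nlrc5, with log2 ratios of 1.51 with alopecia, 1.90 without and 2.26 in wild type. Lymphatic endothelium did not share the high Nlrc5, at 17.3 CPM with alopecia, 27.8 CPM without and 13.6 CPM in wild type. By the mean over the 3 groups, fibroblasts had the lowest Nlrc5 of the named classes outside the hair-forming cells. Their Psmb8 was nonetheless at 143 CPM with alopecia, 217 CPM without and 144 CPM in wild type, above the upper follicle in each group.

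Among leukocytes, regulatory T cells had more H2-K1 and less Nlrc5 than CD4 T cells. H2-K1 was at 3316 CPM with alopecia, 3368 CPM without and 3575 CPM in wild type in regulatory T cells, and at 2325 CPM with alopecia, 2898 CPM without and 2603 CPM in wild type in CD4 T cells. Nlrc5 was at 68.0 CPM with alopecia, 70.5 CPM without and 88.6 CPM in wild type in regulatory T cells, against 131 CPM with alopecia, 123 CPM without and 144 CPM in wild type in CD4 T cells. The log2 ratios for Nlrc5 were -0.94 with alopecia, -0.81 without and -0.70 in wild type. Dendritic cells differed by state. Psmb8 in migratory dendritic cells, which carry antigen to lymph nodes, was at 651 CPM with alopecia, 579 CPM without and 458 CPM in wild type, above type 2 conventional dendritic cells by 2.05 log2 units with alopecia, 1.88 without and 1.28 in wild type. The no alopecia library held 10 migratory dendritic cells. Type 1 conventional dendritic cells, specialised in cross-presentation on class I, had the second-highest Psmb8 (379 CPM with alopecia, 298 CPM without and 430.2 CPM in wild type) but the lowest H2-K1 of the leukocyte classes, at 777 CPM with alopecia, 1054 CPM without and 803 CPM in wild type.

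Likeness of pattern was measured by Pearson's r of log2(CPM + 1) over 21 classes that share libraries and depth, against 11536 genes. The nearest genes to H2-K1 were H2-Q7 (r = 0.957), H2-Q6 (0.952), H2-D1 (0.938), B2m (0.934) and Psmb8 (0.928). Nlrc5 was nearest to Tap1 (0.920), followed by Itpr2 (0.812), a calcium channel, and Atp2b4 (0.795), a calcium pump, ahead of H2-Q7 (0.790) and H2-K1 (0.738). Nlrc5 spans 92917 bases, and whether reads in introns were counted is not given in the sources used here. Psmb8 and B2m thus lay nearest to the heavy chains, and Tap1 and Nlrc5 nearest to each other. In 90-base windows of the spliced transcripts, 5.46% of those of H2-D1 and 0.131% of those of H2-K1 occurred in another gene, and 0 of the windows in the first 500 bases of any of the 9 genes did. Only reads that fall in these shared windows cannot be assigned to 1 gene. In GENCODE vM21 Tap1 and Psmb9 overlap at their starts on opposite strands, and whether counting used the strand is not given in the sources used here.

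Across groups most values lay within 1.5-fold of each other. Gene and class pairs were counted where both libraries had at least 100 cells of the class and the gene at least 20 UMIs over both, and a pair was called higher or lower past 1.5-fold. In the CD45-negative sort, with alopecia against without, 0 of 89 pairs were higher and 15 were lower, against 9.58% higher and 8.56% lower among all genes. Ratios under 0 on the log2 scale numbered 81 of 89, with a median of -0.31, and 54 intervals lay wholly below 0. Over all genes the medians of these classes lay between -0.023 in upper follicle keratinocytes and 0.079 in blood endothelium. The share of all genes with ratios or intervals below 0 was not counted. In the CD45-positive sort 3 of 80 pairs were higher and 2 lower, against 14.1% and 7.63% of all genes. The excess of lower pairs was thus on the CD45-negative side, where 7 of the 15 were in 1 class, the melanocytes.

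Against wild type the CD45-negative cells without alopecia had 11 of 72 pairs higher (all genes 9.47%) and 0 lower (11.1%), with a median of 0.21, and the CD45-positive cells had 0 of 79 higher (7.96%) and 9 lower (12.2%). With alopecia against wild type, 4 of 71 CD45-negative pairs were higher (7.85%) and 6 lower (7.5%). Of 90 CD45-positive pairs 0 were higher, against 9.05% of all genes over both sorts, and 8 were lower (8.45%). Over both sorts the counts were 3 higher (all genes 11.5%) and 17 lower (8.16%) of 169 with alopecia against without, 11 higher (8.77%) and 9 lower (11.6%) of 151 without alopecia against wild type, and 4 higher (9.05%) and 14 lower (8.01%) of 161 with alopecia against wild type. The 3 comparisons share libraries and are not independent, and most of these shares lie near or under those of all genes.

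**Figure D4:**
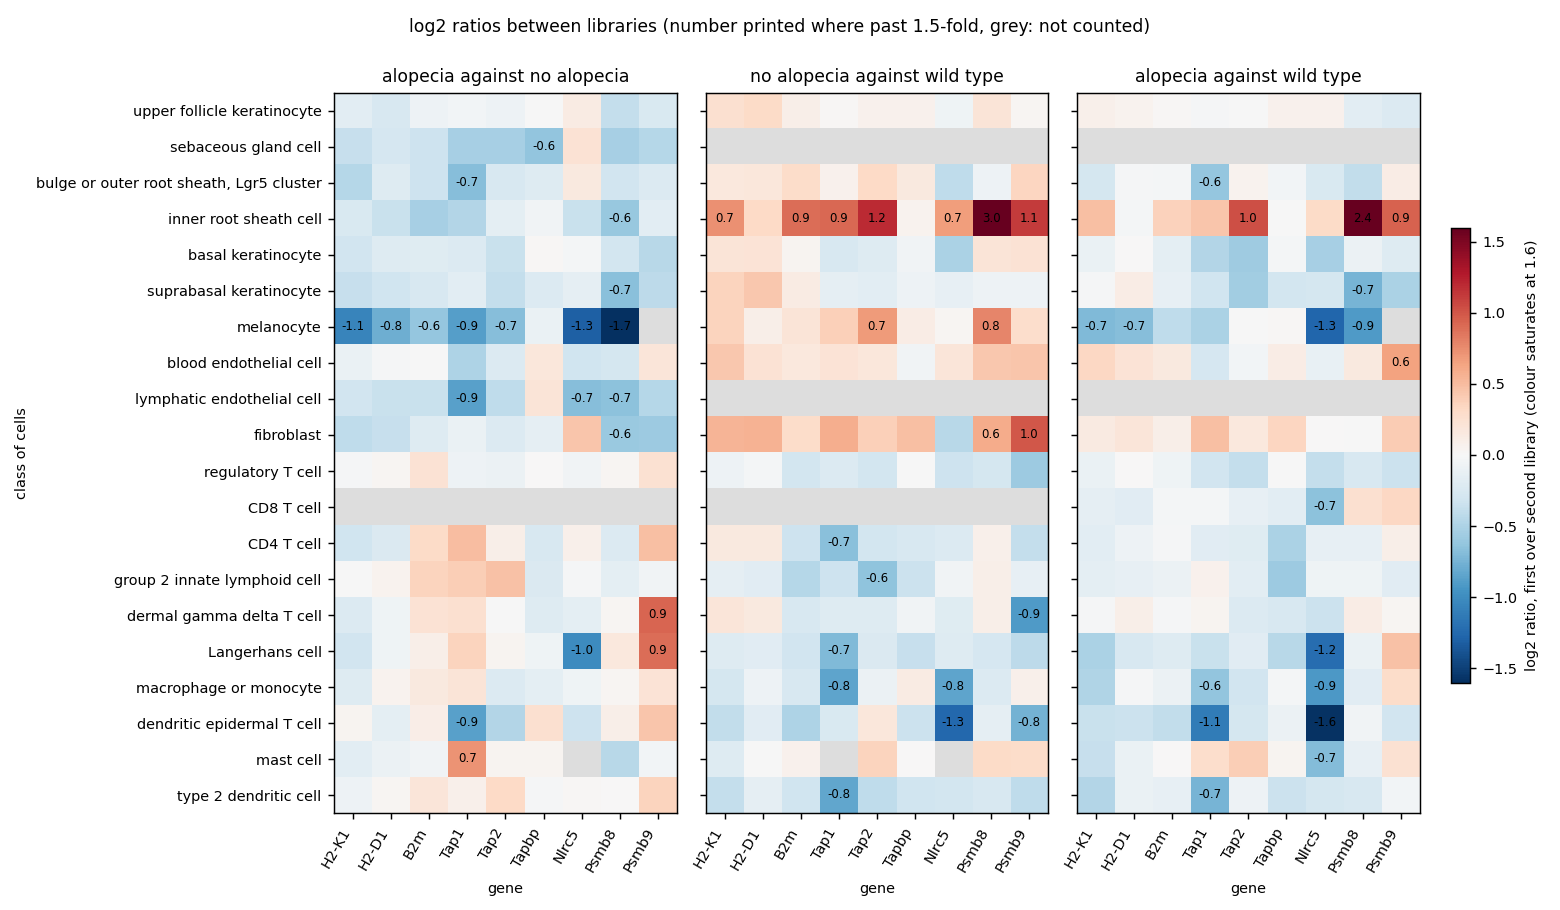
Log2 ratio of each class I gene (columns) in each class compared (rows), for the 3 comparisons of groups, with the value printed where it passes 1.5-fold and grey where cells or counts were too few. The melanocyte row is low with alopecia against without, and the inner root sheath row is high without alopecia against wild type.

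In melanocytes, the pigment cells of the follicle, 7 of the 8 genes counted were lower past 1.5-fold with alopecia than without, where 12.4% of all genes were lower in that class. H2-K1 was at 565 CPM with alopecia, 1176 CPM without and 920.0 CPM in wild type. H2-D1 was at 1157 CPM with alopecia, 1985 CPM without and 1855 CPM in wild type, and B2m at 904 CPM with alopecia, 1387 CPM without and 1198 CPM in wild type. For each of these the alopecia library was the lowest of the 3 and the no alopecia library the highest. The log2 ratios with alopecia against without were -1.06 for H2-K1 (-1.24 to -0.88), -0.78 for H2-D1 (-0.91 to -0.65) and -0.62 for B2m (-0.77 to -0.47).

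The processing genes of melanocytes were lower too, on fewer UMIs. Psmb8 was at 25.1 CPM with alopecia, 81.0 CPM without and 47.2 CPM in wild type, and its log2 ratio with alopecia against without was -1.69 (-2.58 to -0.88). Nlrc5 was at 20.4 CPM with alopecia, 50.3 CPM without and 49.1 CPM in wild type (-1.30, -2.33 to -0.37). Tap1 had -0.88 (-1.57 to -0.22) and Tap2 -0.68 (-1.30 to -0.09), while Tapbp, the gene within 1.5-fold, had -0.11. The share of Psmb8 in its pair was 12.5% with alopecia (7.32% to 19.5%), 37.9% without (30.7% to 45.6%) and 25.3% in wild type (17.1% to 35.0%). Against wild type, 4 of 8 genes were lower with alopecia (all genes 12.6%), with log2 ratios of -0.70 for H2-K1 (-0.90 to -0.50) and -1.27 for Nlrc5 (-2.35 to -0.26). That Nlrc5 ratio was -0.27 with no doublet removal and -0.42 with each cell classed by its own markers, both within 1.5-fold.

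Other lists were lower beside the class I genes in these cells. Of the other class I heavy chains 4 of 5 measured were lower with alopecia than without (H2-Q4, H2-Q6, H2-Q7 and H2-T23). Interferon gamma response genes outside class I were lower in 7 of 9, with a median of -0.92, and Irgm1, an interferon-induced GTPase, was at 72.2 CPM with alopecia, 183 CPM without and 155 CPM in wild type. Class I promoter factors were lower in 7 of 15 and higher in 1, Nfyb. Neither the constitutive catalytic subunits (0 of 3) nor the other 20S core subunits (0 of 11) passed 1.5-fold. Over all genes of the class the median was 0.01.

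Melanocytes of the libraries differed in other ways whose part in the result was not tested. The dissociation stress list, immediate early and heat shock genes that rise during tissue digestion, was lower in 16 of 20 genes with alopecia than without, with a median of -0.92, and summed to 14628 CPM with alopecia, 26964 CPM without and 23740.3 CPM in wild type. In upper follicle keratinocytes 14 of the 20 stress genes were lower too, with a median of -1.01. Of the 9 class I genes there, 0 were lower past 1.5-fold and 8 had ratios below 0, with a median of -0.08. Whether stress and class I levels were linked in either class was not tested. Some pigment genes, Tyr, Oca2, Dct and Pmel, were highest with alopecia, while Mlana, given below, was not in all cells. Tyr, which makes melanin, was at 833 CPM with alopecia, 393 CPM without and 519.5 CPM in wild type. Keratinocyte RNA was highest without alopecia, with Krt15 at 75.3 CPM with alopecia, 437 CPM without and 66.1 CPM in wild type. Hemoglobin RNA summed to 4.71 CPM with alopecia, 4.91 CPM without and 10288 CPM in wild type. The class held 144 cells with alopecia, 360 without and 184 in wild type. Melanocytes that entered the CD45-positive sort, which are separate libraries, had H2-K1 at 863 CPM with alopecia (29 cells), 1358 CPM without (4 cells) and 839.8 CPM in wild type (17 cells).

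After these values were seen, melanocytes were split by whether a UMI of Tyr, Oca2 or Slc45a2, the pigment enzyme and transporter genes, was seen after thinning to 1000 UMIs. Such a UMI was seen in 50 of 136 cells with alopecia, 74 of 316 without and 35 of 175 in wild type. In cells with it, H2-K1 was at 582 CPM with alopecia, 959 CPM without and 576 CPM in wild type. In cells without it, H2-K1 was at 559 CPM with alopecia, 1254 CPM without and 1048 CPM in wild type. The log2 ratio with alopecia against without was -0.72 (-1.02 to -0.42) in cells with a pigment UMI and -1.17 (-1.41 to -0.93) in cells without one. Against wild type it was 0.01 (-0.37 to 0.41) with a pigment UMI and -0.91 (-1.17 to -0.65) without one. H2-D1 with alopecia against wild type was -0.46 (-0.71 to -0.19) with a pigment UMI and -0.66 (-0.84 to -0.49) without one. The split did not make the cells alike in pigment RNA: in cells without such a UMI, Tyr was at 321 CPM with alopecia, 133 CPM without and 152 CPM in wild type, and Pmel, a pigment fibril gene, at 3862 CPM with alopecia, 1762 CPM without and 1514 CPM in wild type. Mlana, another melanocyte marker, was lowest with alopecia in cells with a pigment UMI, at 1931 CPM with alopecia, 2286 CPM without and 4334 CPM in wild type. In cells without one it was at 661 CPM with alopecia, 627 CPM without and 563 CPM in wild type. The part of pigment state in the lower class I level was not tested.

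**Figure D5:**
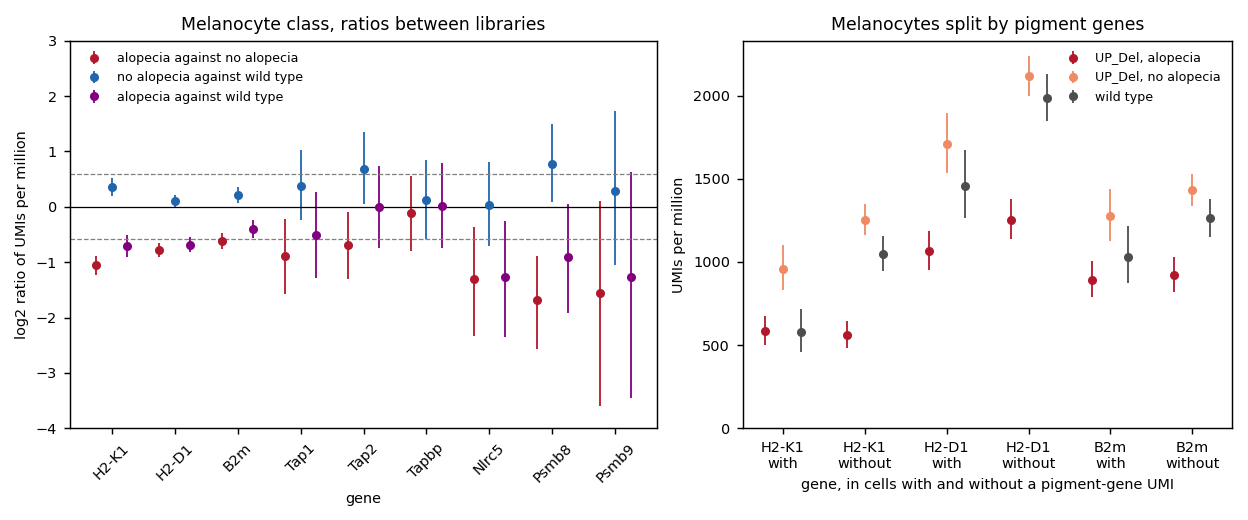
Left, log2 ratios of the 9 class I genes in melanocytes for the 3 comparisons, with 95% intervals and dashed lines at 1.5-fold; Psmb9 had too few UMIs to be counted in the comparisons of the alopecia library. Right, levels (CPM, 95% Poisson intervals) of H2-K1, H2-D1 and B2m in cells with and without a UMI of Tyr, Oca2 or Slc45a2: H2-K1 is lower with alopecia (582 and 559 CPM) than without (959 and 1254 CPM) in both kinds of cell.

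In inner root sheath cells 7 of 9 genes were higher without alopecia than in wild type (all genes 5.87%), from the low levels given above. The log2 ratio was 0.73 for H2-K1 (0.51 to 0.95), 0.90 for B2m (0.63 to 1.17), 0.91 for Tap1 (0.26 to 1.59) and 1.19 for Tap2 (0.20 to 2.26). Psmb8 had 2.97 (1.25 to 5.35) from 23 UMIs against 3, and Nlrc5 (0.67, -0.64 to 2.06) and Psmb9 (1.12, -0.17 to 2.54) had intervals that included 0. With alopecia, 3 of the 9 were higher than in wild type (all genes 3.66%): Tap2 (1.03), Psmb8 (2.37, 0.59 to 4.77) and Psmb9 (0.95, -0.32 to 2.36). RNA of outer keratinocytes in this class was highest without alopecia, with Krt15 at 103 CPM with alopecia, 334 CPM without and 74.9 CPM in wild type, and Krt5 at 797 CPM with alopecia, 1165 CPM without and 707 CPM in wild type. Krt71, a marker keratin of the class, was lowest without alopecia, at 1370 CPM with alopecia, 452 CPM without and 967 CPM in wild type. The keratin RNA of the class thus differed between the libraries, and whether its mix of cells did was not measured. The stress list was higher without alopecia than in wild type in 9 of 20 genes. The part of the keratins, the make-up of the class or the stress genes in the result was not tested.

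In fibroblasts the immunoproteasome genes were highest without alopecia, and most of the 9 genes shared this direction. Psmb9 was at 55.6 CPM with alopecia, 83.0 CPM without and 41.8 CPM in wild type, and Psmb8 at 143 CPM with alopecia, 217 CPM without and 144 CPM in wild type. Without alopecia against wild type the log2 ratio was 0.99 for Psmb9 (0.71 to 1.28) and 0.60 for Psmb8 (0.44 to 0.75), 2 of 9 genes higher where 10.3% of all genes were. Tap1 (0.58, 0.15 to 1.03), H2-D1 (0.56, 0.51 to 0.62) and H2-K1 (0.55, 0.48 to 0.62) lay just under the 1.5-fold limit. The median of the 9 was 0.55, and 1 ratio, that of Nlrc5, was below 0 (-0.44, -1.06 to 0.21). Of the other class I heavy chains 5 of 9 measured were higher (H2-Q6, H2-T22, H2-T23, H2-T24 and H2-M3), with a median of 0.70. With alopecia against without, Psmb8 was lower by 0.60 log2 units (-0.74 to -0.46). Fibroblasts that entered the CD45-positive sort, which are separate libraries, gave the same sign in 8 of 9 genes without alopecia against wild type, in 7 of 9 with alopecia against without and in 4 of 9 with alopecia against wild type. Without alopecia against wild type, Psmb9 was at 0.11 there (-0.42 to 0.67), Psmb8 at 0.37 (0.03 to 0.71) and H2-K1 at -0.05 (-0.19 to 0.09), against 0.55 for H2-K1 in the CD45-negative sort. Both sorts of a group were taken from its skin, so like signs do not measure the spread between mice. The share of like signs over all genes was not counted.

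In the other CD45-negative classes 0 to 3 genes passed 1.5-fold in a comparison. Of these classes only upper follicle keratinocytes have an all-gene share of their own here. Over all named CD45-negative classes together, 8.56% of the pairs of all genes were lower with alopecia than without. With alopecia against wild type 7.85% were higher and 7.5% lower. Psmb8 in suprabasal keratinocytes was at 57.7 CPM with alopecia, 91.6 CPM without and 97.0 CPM in wild type, a log2 ratio with alopecia of -0.67 (-0.87 to -0.47) against without and of -0.75 (-1.01 to -0.49) against wild type. Lymphatic endothelium had lower Psmb8 with alopecia than without (-0.66, -1.13 to -0.21), and the intervals of Tap1 (-0.87, -2.05 to 0.18) and Nlrc5 (-0.69, -1.88 to 0.38) included 0. Sebaceous gland cells had lower Tapbp (-0.63, -0.96 to -0.30), and the Lgr5 cluster lower Tap1 (-0.68, -1.21 to -0.19). Psmb8 in inner root sheath cells had -0.61 (-1.58 to 0.35) with alopecia against without, and over 11 alternatives it ranged from -1.88 with no doublet removal to -0.12 with 0.8% doublets per 1000 barcodes. In blood endothelium Psmb9 was higher with alopecia than in wild type (0.64, 0.23 to 1.07). Upper follicle keratinocytes, the class with the most follicle cells, had 0 of 9 genes past 1.5-fold in each of the 3 comparisons. Of all genes in this class 6.21% were higher and 7.58% lower with alopecia against without, 6.56% and 5.71% without alopecia against wild type, and 5.54% and 5.47% with alopecia against wild type. The ratios of the 9 genes with alopecia against without lay between -0.38 and 0.14.

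Among leukocytes the differences were largest for Nlrc5, Tap1 and Psmb9. In macrophages or monocytes Nlrc5 was at 37.6 CPM with alopecia, 39.5 CPM without and 70.9 CPM in wild type, and Tap1 at 54.5 CPM with alopecia, 47.1 CPM without and 84.4 CPM in wild type, so both deletion libraries were lower than wild type. The log2 ratios to wild type were -0.91 with alopecia and -0.85 without for Nlrc5, and -0.63 with alopecia and -0.84 without for Tap1. Tap1 was also lower without alopecia than in wild type in type 2 conventional dendritic cells (-0.83), Langerhans cells (-0.71) and CD4 T cells (-0.67). The interferon gamma response list was lower than in wild type in 12 of 19 genes in macrophages with alopecia and in 12 of 19 without, with medians of -0.63 with alopecia and -0.80 without. Over all genes of the class the medians were 0.04 with alopecia and -0.04 without. Over all genes of the named CD45-positive classes together, 8.45% of pairs were lower with alopecia and 12.2% without. T-cell receptor RNA in these myeloid classes differed between libraries: 58.1% of macrophages with alopecia, 70.3% without and 72.9% in wild type held 3 or more such UMIs.

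Langerhans cells, the dendritic cells of the epidermis, had Nlrc5 at 22.1 CPM with alopecia, 44.4 CPM without and 51.4 CPM in wild type. The log2 ratio with alopecia was -1.01 (-1.53 to -0.47) against without and -1.22 against wild type. Their Psmb9 lay the other way, at 102 CPM with alopecia, 54.9 CPM without and 73.6 CPM in wild type, and was higher with alopecia than without by 0.89 (0.51 to 1.29). Psmb9 in dermal gamma delta T cells was at 27.9 CPM with alopecia, 14.7 CPM without and 27.4 CPM in wild type, the no alopecia library being low against both others. The third pair that was higher with alopecia than without, Tap1 in mast cells, had an interval that included 0 (0.72, -0.78 to 2.51). In dendritic epidermal T cells Nlrc5 was at 15.4 CPM with alopecia, 19.4 CPM without and 46.2 CPM in wild type, lower than wild type by 1.59 log2 units with alopecia (-2.40 to -0.82) and by 1.25 without. CD8 T cells, the cells that read class I, had H2-K1 at 2604 CPM with alopecia, 2908 CPM without (61 cells) and 2889 CPM in wild type.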

How the data were processed

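The authors deposited whole-number UMI count matrices, which per the submitters' processing notes came from Cell Ranger 7.1.0 with the mm10 genome; the annotation release is not given in the sources used here. Barcodes under 500 UMIs, under 300 genes or above 10% mitochondrial UMIs were dropped, and the cells with the highest simulated-doublet scores were removed, at 0.4% per 1000 barcodes. Each sort was clustered with scanpy 1.11.5 on 2000 variable genes without the 9 class I genes, in 30 principal components with 15 neighbours, at Leiden resolution 1.0, and clusters were named from marker lists. UMIs were summed per class and library and scaled to CPM. Levels have exact Poisson intervals, ratios and shares exact binomial (Clopper-Pearson) intervals, all at 95%. On simulated counts with 200 genes changed 2-fold, the 1.5-fold rule called 95.0% of them in fibroblasts without alopecia against wild type (10697 genes) and 4.40% of the unchanged genes. In melanocytes with alopecia against without (7721 genes) it called 92.0% and 12.6%. The simulated counts held counting noise only, with no differences between mice, libraries or the make-up of a class. Their shares of unchanged genes called therefore do not measure false calls in the real comparisons. The closing section gives 12 alternatives of filter, doublet removal, clustering, class and scaling. The class I genes, gene lists and class markers were chosen with earlier results of these data known. By rule the text names the 9 genes, list members as examples, and the 5 genes most like a given class I gene.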

Additional observations from a re-analysis of the deposited data

Results flagged for a closer look

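For 4 class I genes a group difference was past 1.5-fold in opposite directions in different cell classes, with intervals that lay wholly above 0 in one and wholly below 0 in another, and none of these differences between classes was tested. Without alopecia against wild type, Tap1 was higher in inner root sheath cells (log2 ratio 0.91) and lower in CD4 T cells (-0.67), Langerhans cells (-0.71), type 2 conventional dendritic cells (-0.83) and macrophages or monocytes (-0.84). In the same comparison Tap2 was higher in inner root sheath cells (1.19) and melanocytes (0.68) and lower in group 2 innate lymphoid cells (-0.64), and Psmb9 was higher in fibroblasts (0.99) and lower in dermal gamma delta T cells (-0.90). With alopecia against wild type, Psmb8 was higher in inner root sheath cells (2.37) and lower in suprabasal keratinocytes (-0.75). Each direction rests on 1 library per group, and for Tap1, Tap2 and Psmb9 the higher values come from the CD45-negative sort and the lower ones from the CD45-positive sort.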

How the results depend on the processing

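No paired analysis was possible because each group has 1 library per sort and the labels carry no replicate numbers. Of up to 58 ratios past 1.5-fold, 0 to 5 moved by more than their interval under any one of 12 alternatives, and 1 changed sign: Nlrc5 in inner root sheath cells without alopecia against wild type was -0.16 with no cell filter, in place of 0.67. The alternative without T-cell receptor UMIs in myeloid cells was added after seeing the data and moved 1 of 48. In melanocytes with alopecia against without, H2-K1 ranged from -1.08 to -0.87 and B2m from -0.64 to -0.40. With alopecia against without, the 3 pairs higher became 5 with classes of 50 or more cells and 0 at 2-fold, and the 17 lower became 4 at 2-fold. Without alopecia against wild type, the 11 higher became 6 with 0.8% doublets per 1000 barcodes and 3 at 2-fold, and the 9 lower became 1 at 2-fold. With alopecia against wild type, the 4 higher became 7 with classes from each cell's own markers and 2 at 2-fold, and the 14 lower became 4 at 2-fold. The H2-K1 log2 ratio of hair shaft or matrix to upper follicle cells was, with alopecia, -4.11 with no doublet removal, -3.90 with each cell's own markers and -4.96 as a mean over cells. Without alopecia it was -4.79 with no cell filter, -3.20 with no doublet removal and -2.12 with own markers, and in wild type -3.80 with own markers. That of inner root sheath to upper follicle was -4.13 with alopecia as a mean over cells. Without alopecia it was -4.08 with 0.8% doublets, -3.06 with no doublet removal, -3.05 with own markers and -3.98 as a mean over cells, and in wild type -3.98 with own markers. The cause of these shifts was not tested. Counts of 0 to 23 UMIs limit Psmb8 in the hair-forming cells, 10 cells limit migratory dendritic and NK cells without alopecia, and 29 limit hair shaft or matrix cells.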

Other observations

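Cycling keratinocytes had more RNA of the heavy chains, the light chain, Tap1 and the immunoproteasome genes than basal and suprabasal keratinocytes, on few cells (28 with alopecia, 218 without and 14 in wild type). H2-K1 was at 1861 CPM with alopecia, 2320.0 CPM without and 2152 CPM in wild type, each above the basal and suprabasal keratinocytes of its library. Psmb9 was at 167 CPM with alopecia, 219 CPM without and 223 CPM in wild type, against 53.4 CPM with alopecia, 72.4 CPM without and 61.7 CPM in wild type in basal keratinocytes. Tap2 with alopecia was at 28.8 CPM, under the 44.4 CPM of basal and 38.5 CPM of suprabasal keratinocytes, and Tapbp with alopecia at 59.5 CPM, under the 74.9 CPM of basal keratinocytes. Nlrc5 lay the other way, at 82.5 CPM with alopecia, 98.4 CPM without and 99.9 CPM in wild type, under basal keratinocytes in each library.

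Genes linked in the literature to follicle immune privilege were not uniformly high where class I was low. Tgfb2, a growth factor with immunosuppressive effects, was at 26.2 CPM with alopecia, 26.4 CPM without and 32.1 CPM in wild type in inner root sheath cells, and at 0.429 CPM with alopecia, 1.42 CPM without and 1.05 CPM in wild type in the upper follicle. Cd200, which signals to an inhibitory receptor on myeloid cells, was at 3.30 CPM with alopecia, 6.72 CPM without and 6.11 CPM in wild type in inner root sheath cells, and at 224 CPM with alopecia, 220.3 CPM without and 224 CPM in wild type in the upper follicle. The list of 11 such genes summed in inner root sheath cells to 768 CPM with alopecia, 894 CPM without and 743 CPM in wild type, under its sum in the upper follicle in each group (1143 CPM with alopecia, 1349 CPM without and 1173 CPM in wild type).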
